A study of Mus musculus with 10 samples.

Results

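The genes described here encode molecular chaperones, proteins that fold other proteins or keep them from clumping. They are 38 genes taken by symbol from the deposited count table of 56832 genes: 14 cytosolic heat shock proteins and partners other than the small heat shock proteins, 3 mitochondrial chaperones, and 21 genes of folding, disulfide formation, stress sensing and degradation in the endoplasmic reticulum (ER). All 38 passed the filter on low counts that left 12115 genes for testing. The cells were heart muscle cells of 5 Sprr1a-GFP reporter mice, operated on to give a myocardial infarction at 12 weeks of age and taken 5 days later. Each heart was digested with enzyme by perfusion, and its cells were sorted into GFP+ cells, labelled as border zone cardiomyocytes, and GFP- cells, labelled as remote zone cardiomyocytes. Every library title carries the tag Hetz, and each mouse gave 1 library per kind, so there are 5 GFP+ and 5 GFP- libraries in 5 pairs. The zone is a label attached to the reporter: GFP+ cells are those in which the reporter named for Sprr1a was on, and no uninjured heart was analysed here.

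Cytosolic chaperones work in a relay. Hsp70 proteins bind unfolded stretches with the help of J-domain partners (Dnaj genes), which deliver clients and stimulate ATP hydrolysis, and Hsp90 proteins finish the folding of kinases, receptors and, in muscle, myosin. The transcription factor Hsf1 switches on many of these genes when proteins unfold. In the ER, secreted and membrane proteins meet the Hsp70 protein BiP (Hspa5), the lectin chaperones calnexin and calreticulin, and disulfide isomerases, and when folding falls behind, sensors that include Ire1 (Ern1) and Atf6 raise the whole set in the unfolded protein response. Heart muscle relies on both systems for its dense sarcomeres and its calcium store, and fibroblasts that secrete collagen are known for a large ER folding capacity.

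Total counts were 12244373 to 38879965 per library, and mitochondrially encoded genes took 9.20 to 91.2% of them, which sets the depth left for other genes. Both ends came from mouse 21A7, the GFP- library at 9.20% and the GFP+ library at 91.2%. Their TMM scaling factors were 3.31 and 0.241, and the GFP+ library had 3417972 counts outside mitochondrially encoded genes, the fewest of all. Sprr1a had 1452 to 6903 counts in GFP+ libraries and 10 to 406 in GFP- libraries. The 9 cardiomyocyte markers summed to 10478 to 40943 CPM (counts scaled to a common library size, with TMM factors throughout) in GFP+ libraries and 3859 to 46931 in GFP- libraries, and in both groups the library of mouse 21A7 was the lowest. Markers of other heart cells were present: the 8 fibroblast markers summed to 264, 315, 2052, 1756 and 5123 CPM in the GFP+ libraries of 17C1, 17C2, 21A4, 21A5 and 21A7, against 130, 283, 6507, 10777 and 12064 CPM in their GFP- libraries. All 8 fibroblast, 8 macrophage and 6 endothelial markers had log2 fold changes below 0 and all 4 mesothelial markers had one above 0, with 0 of these past an adjusted p of 0.05. Among them Tcf21 was at 0 in 1 GFP+ and 1 GFP- library, Ptprc, Msln and Upk3b were each at 0 in 1 GFP- library, and the other 7 fibroblast markers were counted in every library. The 6 mural markers were mixed, 5 below and 1 above 0, with 0 called, and Myh11 was at 0 in 2 GFP+ libraries. The identifiers begin with 21A (3 mice) or 17C (2 mice), read here as 2 series, so values within each series are given where they differ. Titles of GFP+ libraries name a DAPI-negative and a DAPI-positive sort and titles of GFP- libraries a DAPI-negative sort alone. DAPI is a DNA dye that enters cells with broken membranes, and this difference cannot be told apart from the group.

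No chaperone gene differed between GFP+ and GFP- libraries past the threshold. With the mouse as a block, edgeR's quasi-likelihood test called 104 of 12115 genes at a Benjamini-Hochberg adjusted p under 0.05 (0.858% of genes tested, 83 higher and 21 lower), and 0 of 38 members. At an unadjusted p under 0.05 it called 3 members, Dnajb4 higher and Hspa1a and Dnajc3 lower, against 15.3% of all genes. Without the block the counts at that level were 0 of 38 members and 8.18% of all genes. DESeq2 and limma voom, fitted to the same pairs, each called 1 member, Dnajb4, where they called 7.53% and 9.6% of all genes. Member log2 fold changes lay between -0.86 and 0.78, and 33 of 38 between -0.5 and 0.5. In bulk libraries such as these, fewer cells of a type and less RNA per cell cannot be told apart.

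**Figure D1:**
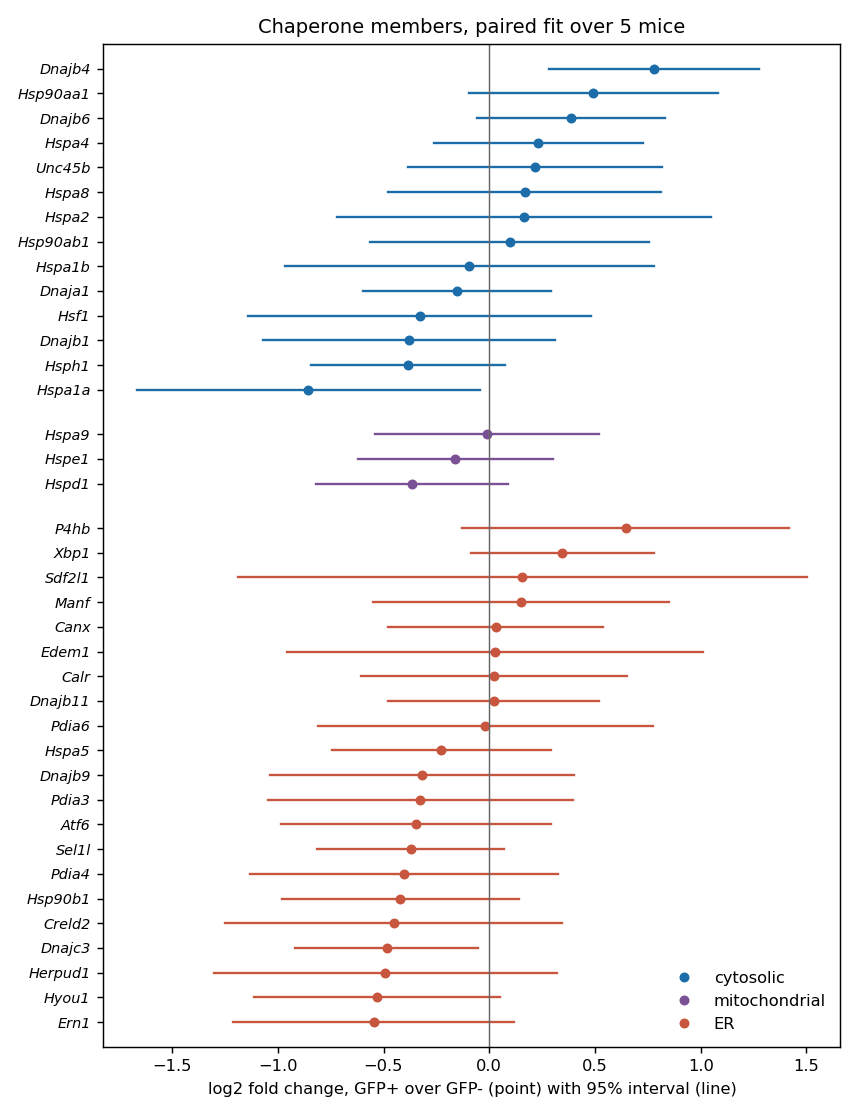
Log2 fold change (x axis, GFP+ over GFP-) of each of the 38 chaperone genes (y axis, grouped by compartment) in the edgeR fit with the mouse as a block; points are estimates and lines 95% intervals. The intervals of Dnajb4, Hspa1a and Dnajc3 leave out 0, and no adjusted p is under 0.05.

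Agreement between mice was close to that of any gene. The sign of the difference was the same in all 5 mice for 7 of 38 members, against 17.2% of all tested genes. Dnajb4, Dnajb6 and Xbp1 were higher in the GFP+ library of each mouse, and Hspd1, Hspa5, Dnajc3 and Sel1l were lower. For 0 of 38 members did the GFP+ and GFP- libraries separate without overlap, against 2.45% of all genes.

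By level per length, the highest places belonged to few genes. On the scale of CPM per kilobase of merged exons, Hsp90ab1, the constitutive cytosolic Hsp90, was first at a level of 232 ± 53.8 in GFP+ libraries and 213 ± 21 in GFP- libraries (SD, n = 5 each). Hspa8, the constitutive Hsp70, followed at 147 ± 28.8 in GFP+ libraries and 132 ± 32.1 in GFP- libraries. P4hb, the founding protein disulfide isomerase, was at 113 ± 25.6 in GFP+ libraries and 78.7 ± 44.1 in GFP- libraries, and Calr, the calcium-binding lectin chaperone, at 80.9 ± 21.9 and 85.2 ± 42.1 in the same groups. Of these 4, Calr came before P4hb in GFP- libraries, and neighbours overlapped within 1 SD in both groups except Hsp90ab1 over Hspa8. The last places were held by regulators, Hsf1 at 1.02 ± 0.46 in GFP+ and 1.21 ± 0.25 in GFP- libraries and Ern1 at 0.79 ± 0.32 in GFP+ and 1.12 ± 0.38 in GFP- libraries. Exon lengths come from GENCODE M21, an annotation of an earlier build than the files use, and serve only to order levels.

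Dnajb4 had the smallest p of the 38 members and the highest log2 fold change above 0. It encodes a J-domain partner of Hsp70 expressed in heart and skeletal muscle. It had 101, 69.3, 60.3, 85.2 and 22.8 CPM in the GFP+ libraries of 17C1, 17C2, 21A4, 21A5 and 21A7, against 52.2, 62.3, 28.9, 45.3 and 13.1 CPM in their GFP- libraries. Each GFP+ library was above its partner, while the groups overlapped because mouse 21A7 was low in both and mouse 17C2 moved least. The log2 fold change was 0.78 ± 0.22 (SE, 95% interval 0.28 to 1.28), with an edgeR adjusted p of 0.154. DESeq2 gave it an adjusted p of 0.0243 and limma voom 0.0193. In the 21A mice alone Dnajb4 was the 1 member called, at 0.95 ± 0.21 (edgeR adjusted p = 0.0283, where 6.72% of all genes were called). The 17C mice gave 0.57 ± 0.28 (edgeR adjusted p = 0.203), and the difference between the series was 0.37 ± 0.35 (edgeR adjusted p = 0.561). With a covariate for the summed markers of fibroblasts, macrophages, endothelial and mural cells (the marker covariate below) the value was 0.70 ± 0.21 (edgeR adjusted p = 0.0698). Scaling by library size alone turned it to -0.29, in a fit where the median of all genes was -1.15.

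Promoter sequence of Dnajb4 is shown because this gene had the smallest p of the members. RefSeq gives 2 starts for it, each with a window of 250 bases before to 50 after the start (GRCm38.p6, minus strand), at chr3:152193796-152194095 and chr3:152210034-152210333. Neither window held any of the letters searched for below, and the first is printed, with no base in capitals.
Dnajb4: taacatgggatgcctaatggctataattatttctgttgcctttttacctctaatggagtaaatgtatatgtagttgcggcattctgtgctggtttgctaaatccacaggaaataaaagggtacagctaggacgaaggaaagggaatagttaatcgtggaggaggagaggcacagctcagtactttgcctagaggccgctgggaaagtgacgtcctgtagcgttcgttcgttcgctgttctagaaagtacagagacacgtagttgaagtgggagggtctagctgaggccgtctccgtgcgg

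The stress-inducible Hsp70 genes did not pass either. Hspa1a had 1.96, 0.86, 5.39, 18.7 and 7.58 CPM in GFP+ libraries, in the same order of mice, against 3.83, 2.28, 14.8, 12.9 and 16.3 CPM in GFP- libraries. It was lower in 4 of 5 mice, 21A5 being the exception, and came to -0.86 ± 0.36 on the log2 scale (edgeR adjusted p = 0.301). Its lowest count was 9, in the GFP+ library of 17C2, so counting error is large there. Hspa1b had 3.15, 6.09, 7.53, 32.9 and 10.5 CPM in GFP+ libraries and 4.37, 2.76, 16.4, 18.3 and 18.2 CPM in GFP- libraries, a log2 fold change of -0.10 ± 0.38 (edgeR adjusted p = 0.932). Both genes stood higher in the 21A than in the 17C mice, in either group. The 2 genes are near-identical copies whose RefSeq promoter windows match at 296 of 300 bases, so reads may have been split between them, and 19.0% of the exon length of Hspa1a overlaps an opposite-strand gene that a kit without strand marking cannot separate.

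The abundant Hsp70 and Hsp90 genes did not pass over all 5 mice. Hspa8 had 584, 618, 592, 843 and 519 CPM in GFP+ libraries and 702, 689, 407, 606 and 440 CPM in GFP- libraries, higher in all of the 21A mice and lower in both 17C mice, with a log2 fold change of 0.17 ± 0.28 (edgeR adjusted p = 0.834). Hsp90aa1, the stress-inducible Hsp90, had 90.2, 82.7, 112, 173 and 105 CPM in GFP+ libraries against 47.4, 46.4, 64.3, 157 and 125 CPM in GFP- libraries. It was higher in 4 of 5 mice, at 0.49 ± 0.26 over all (edgeR adjusted p = 0.417). Within the 21A mice Hsp90aa1 was at 0.25 ± 0.27 (edgeR adjusted p = 0.63), and within the 17C mice it passed at 0.89 ± 0.26 (edgeR adjusted p = 0.0259). The test of the difference between series did not pass (edgeR adjusted p = 0.326). Unc45b, the muscle co-chaperone of myosin folding, stood at 0.22 ± 0.26 and Hsp90ab1 at 0.10 ± 0.29.

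Dnajb6, a J-domain protein that suppresses aggregation and is linked to myopathy in humans, had 25.7, 26.4, 23.6, 30.4 and 27.6 CPM in GFP+ libraries against 24.6, 23.0, 16.0, 21.2 and 18.4 CPM in GFP- libraries. GFP+ was the higher in each pair, by a larger step in the 21A mice than in the 17C mice, and the log2 fold change was 0.39 ± 0.20 (edgeR adjusted p = 0.397). Other cytosolic members did not pass: Hspa4 and Hspa2, of the Hsp70 family, were at 0.23 ± 0.22 and 0.16 ± 0.39, and Hsph1, which resets Hsp70 by nucleotide exchange, was at -0.38 ± 0.20. The J-domain partners Dnajb1 and Dnaja1 were at -0.38 ± 0.30 and -0.15 ± 0.19. Hsf1 itself averaged 7.21 ± 3.26 CPM in GFP+ libraries and 8.57 ± 1.74 CPM in GFP- libraries (SD, n = 5 each), a log2 fold change of -0.33 ± 0.36.

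**Figure D2:**
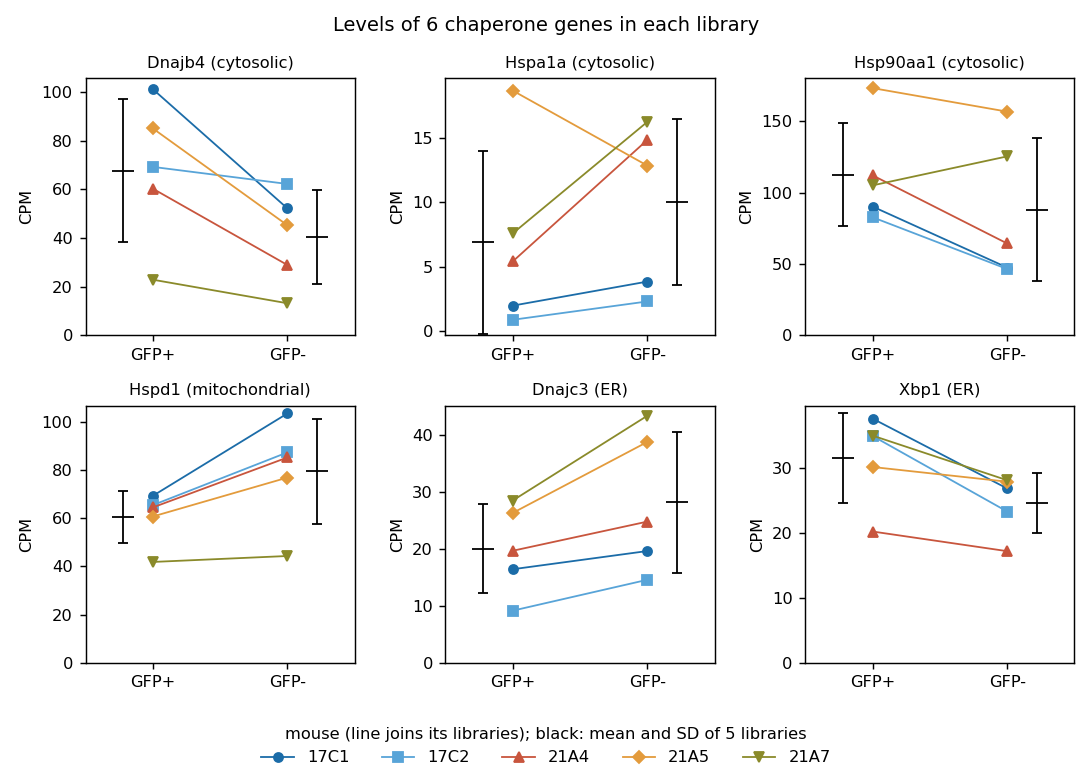
CPM (y axes, linear from 0) of 6 chaperone genes in the GFP+ (left) and GFP- (right) library of each mouse; a line joins the libraries of 1 mouse, and black bars are mean and SD of 5 libraries. Dnajb4 and Xbp1 are higher in the GFP+ library of all 5 mice and Hspd1 and Dnajc3 lower, with groups that overlap in every panel.

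The 3 mitochondrial chaperones had log2 fold changes below 0, and none passed. Hspd1, the chaperonin Hsp60, had 69.3, 65.4, 64.5, 60.7 and 41.8 CPM in GFP+ libraries against 103, 87.3, 85.2, 76.9 and 44.3 CPM in GFP- libraries. It was lower in all 5 mice, by least in 21A7, for a difference of -0.36 ± 0.20 on the log2 scale (edgeR adjusted p = 0.438). Its lid, Hspe1, had 51.3, 41.5, 26.8, 18.2 and 11.2 CPM in GFP+ libraries and 54.1, 49.0, 21.7, 24.1 and 14.7 CPM in GFP- libraries, a log2 fold change of -0.16 ± 0.20 (edgeR adjusted p = 0.768). Both groups of Hspe1 were low in 21A7 and high in the 17C mice. The cardiomyocyte marker sum was also lowest in 21A7. In GFP- libraries it was higher in 17C1 and 17C2 (38645 and 46931 CPM) than in 21A4 and 21A5 (31035 and 18785 CPM). In GFP+ libraries it was lower in 17C1 and 17C2 (19500 and 25240 CPM) than in 21A4 and 21A5 (40943 and 39331 CPM), the reverse of Hspe1. The part of these markers in the Hspe1 values was not tested. Hspa9, the Hsp70 of the matrix and motor of protein import, had 239, 191, 176, 193 and 89.0 CPM in GFP+ libraries and 298, 214, 190.5, 155 and 75.7 CPM in GFP- libraries. It differed by -0.01 ± 0.23 (edgeR adjusted p = 0.988).

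From 1 of 2 RefSeq starts of Hspd1 (window chr1:55087883-55088182), Hspd1 and Hspe1 are transcribed away from each other, with the letters of a heat shock element between them. The Hspe1 window is printed to show that arrangement (GRCm38.p6, chr1:55087898-55088197, plus strand). This Hspd1 window overlaps it on the other strand. The window of the other Hspd1 start (chr1:55088194-55088493), which lies past the Hspe1 start, held no such letters. The 2 genes share 112 exon bases on opposite strands, 7.6% of Hspe1 exons, which a kit without strand marking cannot separate. Capitals mark 2 overlapping matches, 1 on each strand, to the letters GAA, TTC and GAA with any 2 bases between neighbours.
Hspe1: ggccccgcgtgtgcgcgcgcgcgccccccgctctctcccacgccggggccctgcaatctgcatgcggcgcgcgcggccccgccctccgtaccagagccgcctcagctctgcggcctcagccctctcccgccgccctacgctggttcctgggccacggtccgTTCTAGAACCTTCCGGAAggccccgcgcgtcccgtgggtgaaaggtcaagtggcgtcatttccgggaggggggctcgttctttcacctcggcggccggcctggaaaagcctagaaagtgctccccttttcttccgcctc
Of 30 members with a RefSeq window, these letters were found in Hsph1, Dnajb6, Hspd1 and Hspe1, against 0.603% of 32851 mouse windows. The 4 genes stood on both sides of 0, with Dnajb6 at 0.39 and Hsph1 at -0.38 on the log2 scale. Only exact matches were sought, so windows without one, such as those of Hspa1a, Hspa1b and Dnajb1, may still hold a looser form. Hspa8, Hsp90aa1, Hsp90ab1, Hspa9 and Hsf1 were among the members without a window and were not searched.

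Of the 21 ER genes 13 had a log2 fold change below 0, and none passed. Dnajc3, a J-domain partner of BiP also known as an inhibitor of the kinase Perk, had 16.4, 9.14, 19.7, 26.3 and 28.5 CPM in GFP+ libraries against 19.6, 14.6, 24.8, 38.8 and 43.4 CPM in GFP- libraries. Every mouse had less in its GFP+ library, and the levels of both groups were higher in the 21A mice. The log2 fold change was -0.49 ± 0.19 (95% interval -0.92 to -0.05), with an edgeR adjusted p of 0.276. Within the series it was -0.48 in the 21A mice and -0.45 in the 17C mice.

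Hyou1, a large Hsp70-like protein that exchanges nucleotide on BiP, had 15.0, 30.2, 30.4, 56.1 and 47.6 CPM in GFP+ libraries against 36.7, 28.0, 31.5, 90.0 and 80.2 CPM in GFP- libraries. It was lower in 4 of 5 mice, and the log2 fold change was -0.53 ± 0.26 (edgeR adjusted p = 0.373). BiP itself, Hspa5, had 167, 148, 156, 236 and 217 CPM in GFP+ libraries against 193, 156, 159, 343 and 265 CPM in GFP- libraries. All 5 GFP+ libraries were below their partner, those of 17C2 and 21A4 only slightly, and the difference was -0.23 ± 0.23 (edgeR adjusted p = 0.701). Its 95% interval, -0.75 to 0.29, leaves out a doubling in GFP+ cells.

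Hsp90b1, the ER Hsp90 that matures integrins, had 59.7, 51.6, 78.3, 109 and 153 CPM in GFP+ libraries against 62.7, 47.5, 116, 218 and 229 CPM in GFP- libraries. The 21A mice had less in GFP+ cells and the 17C mice close values, and over all 5 it was at -0.42 ± 0.25 (edgeR adjusted p = 0.469). Calr had 226, 215, 167, 218 and 338 CPM in GFP+ libraries and 166, 136, 179, 329 and 416 CPM in GFP- libraries, lower in all of the 21A mice and higher in both 17C mice, for 0.02 ± 0.28 over all (edgeR adjusted p = 0.98). Canx, its membrane-bound counterpart, was at 0.03 ± 0.22, with a 95% interval of -0.48 to 0.54.

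Among the sensors and their outputs, Xbp1, the factor that Ire1 activates by splicing its mRNA, had 37.6, 34.9, 20.2, 30.2 and 35.0 CPM in GFP+ libraries against 26.9, 23.3, 17.2, 27.9 and 28.1 CPM in GFP- libraries. It was the higher in GFP+ in each of the 5 mice, at 0.35 ± 0.19 (edgeR adjusted p = 0.44). Gene counts do not separate its spliced form. Ern1 was at -0.55 ± 0.29 and Atf6, the sensor cleaved in the Golgi, at -0.35 ± 0.28. Degradation genes did not pass either: Sel1l, the scaffold of the Hrd1 ubiquitin ligase, had 16.2, 28.9, 32.6, 41.3 and 36.8 CPM in GFP+ libraries against 24.6, 32.3, 35.9, 60.0 and 49.3 CPM in GFP- libraries. It was below its partner in all 5 mice, at -0.37 ± 0.19 (edgeR adjusted p = 0.416).

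The compartments are described by their medians, beside a median log2 fold change of -0.04 over all genes. The member median was 0.13 for cytosolic genes (8 above and 6 below 0), -0.16 for mitochondrial genes (0 above and 3 below) and -0.32 for ER genes (8 above and 13 below). Taken mouse by mouse and relative to all genes, the cytosolic median was -0.19, 0.17, 0.33, 0.54 and -0.10 in 17C1, 17C2, 21A4, 21A5 and 21A7. The mitochondrial one was -0.32, -0.22, -0.11, -0.32 and -0.06, below 0 in every mouse, over 3 genes. The ER median was 0.03, 0.20, -0.29, -0.52 and -0.40, so its place below 0 came from the 21A mice. With the marker covariate the cytosolic median stood at -0.09 and the ER median at 0.05 relative to all genes, the opposite signs of the fit without it.

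**Figure D3:**
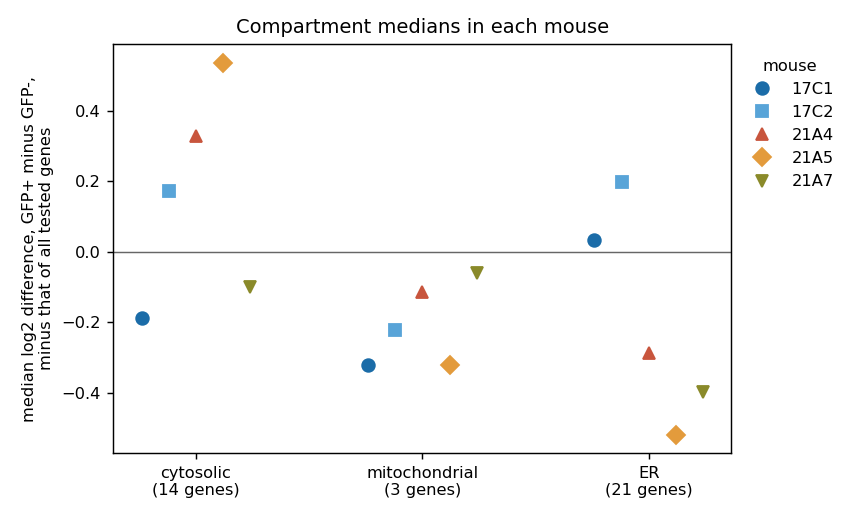
Median over the genes of each compartment (x axis) of the log2 difference between the GFP+ and GFP- library of 1 mouse, minus the same median over all tested genes (y axis); each symbol is 1 mouse. ER medians are -0.29 to -0.52 in the 21A mice, against 0.03 and 0.20 in the 17C mice.

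Members of each compartment took different signs in the 2 series. Of 21 ER members, 11 were below 0 in the 21A mice and above 0 in the 17C mice, and 3 the other way round. Of 14 cytosolic members 2 and 5 did so, in the same order, and of 3 mitochondrial members 0 and 1. The share of all genes with opposite signs was not computed. The ER median log2 fold change was -0.35 in the 21A mice and 0.13 in the 17C mice, and the cytosolic median 0.27 and -0.11. Among 17C mice alone 5 of 38 members passed, where 13.6% of all genes did: P4hb at 1.49 ± 0.27 (edgeR adjusted p = 0.000475), Pdia6 at 0.93 ± 0.29 (0.0322) and Hsp90aa1 were higher, and Herpud1 at -1.38 ± 0.32 (0.00477) and Atf6 at -0.99 ± 0.27 (0.0156) were lower. This series has 2 mice, and its spread is estimated from them with the help of all genes. Cell type markers moved in the same comparison: 4 of 4 mesothelial markers (median log2 fold change 4.56) and 3 of 7 tested fibroblast markers (median 1.03) were called higher, and 6 of 9 cardiomyocyte markers (median -1.26) were called lower. Of 6 tested macrophage and 6 endothelial markers 0 were called there (medians -0.08 and -0.49), and of 6 mural markers 1 was called, higher (median -1.15). In the 21A mice 6 of 8 fibroblast and 7 of 8 macrophage markers were called lower (medians -1.92 and -2.02) and 3 of 4 mesothelial markers higher. In the same mice 0 of 9 cardiomyocyte markers passed (median 0.90). Of 6 endothelial markers 3 were called lower (median -1.38), and of 6 mural markers 1 higher and 1 lower (median -0.94). The marker covariate holds no cardiomyocyte or mesothelial markers, and the part of those in the values of the members was not tested.

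A test of the difference itself, 21A minus 17C, called 4 of 38 members, where it called 7.62% of all genes, a share not far from the background. All 4 are ER genes. Pdia6, a disulfide isomerase that also tempers Ire1, had 47.0, 42.8, 41.0, 44.3 and 70.6 CPM in GFP+ libraries against 21.1, 26.5, 46.4, 90.6 and 113 CPM in GFP- libraries. GFP+ levels held near one value but for 21A7, and it was the GFP- levels that separated the series. Its log2 fold change differed by -1.55 ± 0.37 (edgeR adjusted p = 0.037).

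P4hb, which is also the beta subunit of collagen prolyl hydroxylase, had 367, 365, 224, 268 and 393 CPM in GFP+ libraries against 147, 117, 174, 257 and 431 CPM in GFP- libraries. The 2 groups were close in the 21A mice and more than 2-fold apart, GFP+ above, in both 17C mice, a difference of -1.38 ± 0.37 (edgeR adjusted p = 0.0499). Edem1, a mannose-trimming lectin that sends misfolded glycoproteins to degradation, had 11.7, 8.86, 8.96, 12.0 and 16.97 CPM in GFP+ libraries against 3.11, 5.28, 12.3, 21.7 and 32.1 CPM in GFP- libraries. Here too the GFP+ libraries stayed within a narrow band while the GFP- libraries spread, and the difference was -2.07 ± 0.47 (edgeR adjusted p = 0.0341). Sdf2l1, a partner of Dnajb11 in the BiP cycle, had 10.01, 5.81, 1.59, 6.57 and 4.91 CPM in GFP+ libraries against 1.79, 2.28, 2.82, 11.1 and 10.4 CPM in GFP- libraries, a difference of -2.81 ± 0.64 (edgeR adjusted p = 0.0346). Over all 5 mice these genes were at -0.02 ± 0.35 (Pdia6), 0.65 ± 0.34 (P4hb), 0.03 ± 0.43 (Edem1) and 0.16 ± 0.59 (Sdf2l1), and none passed.

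**Figure D4:**
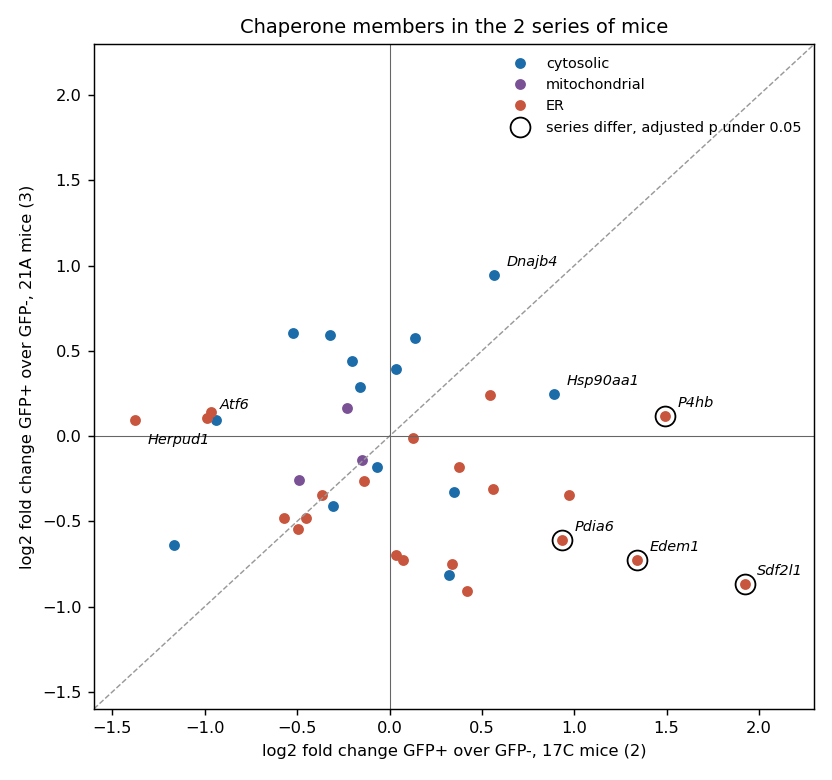
Log2 fold change (GFP+ over GFP-) of each chaperone gene in the 3 mice of the 21A series (y axis) and the 2 mice of the 17C series (x axis); colours give the compartment, rings mark genes whose series differ at an edgeR adjusted p under 0.05, and the dashed line is equality. Pdia6, P4hb, Edem1 and Sdf2l1 lie below the line and Dnajb4 near it, above 0 on both axes.

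These 4 calls, like those over all genes, depended on which mice were in the fit. Leaving out a 21A mouse gave 1 member call without 21A4 (Pdia6), 0 without 21A5 and 1 without 21A7 (Pdia4). Over all tested genes these fits called 349, 1 and 587, against 923 with all 5 mice. With 17C1 or 17C2 left out, 1 mouse stands for the 17C series, so effect sizes alone are given. These were -1.31 and -1.77 for Pdia6, -1.53 and -1.21 for P4hb, -2.22 and -3.35 for Sdf2l1 and -1.48 and -2.64 for Edem1. Scaling by library size alone gave 0 calls among members and 473 over all genes. The sign of all 4 differences was the same each time. Fibroblast marker sums also differed between the series. In GFP- libraries they were 6507 to 12064 CPM in the 21A mice and 130 and 283 CPM in the 17C mice. In GFP+ libraries they were 1756 to 5123 CPM in the 21A mice and 264 and 315 CPM in the 17C mice. There the levels of all 4 genes overlapped between the series, for P4hb 224 to 393 CPM in the 21A mice and 367 and 365 CPM in the 17C mice. The part of fibroblast markers alone in these 4 differences was not tested. The fold changes of other markers differed between the series as well. For 21A minus 17C, all 8 fibroblast and all 8 macrophage markers were below 0 (medians -2.94 and -2.52, with 5 and 2 called), as were all 4 mesothelial markers (median -3.15, 2 called) and all 6 endothelial markers (median -0.76, 1 called). All 9 cardiomyocyte markers were above 0 (median 2.34, 5 called). The 6 mural markers were mixed, 3 above and 3 below 0 (median 0.00), with 1 called, below 0. With the marker covariate 0 members differed between the series, in a fit that called 2 genes in all and has few residual degrees of freedom, and in the comparison of GFP+ with GFP- over 5 mice P4hb passed at 1.04 ± 0.27 (edgeR adjusted p = 0.0383), the 1 member called where 9.51% of all genes were.

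**Figure D5:**
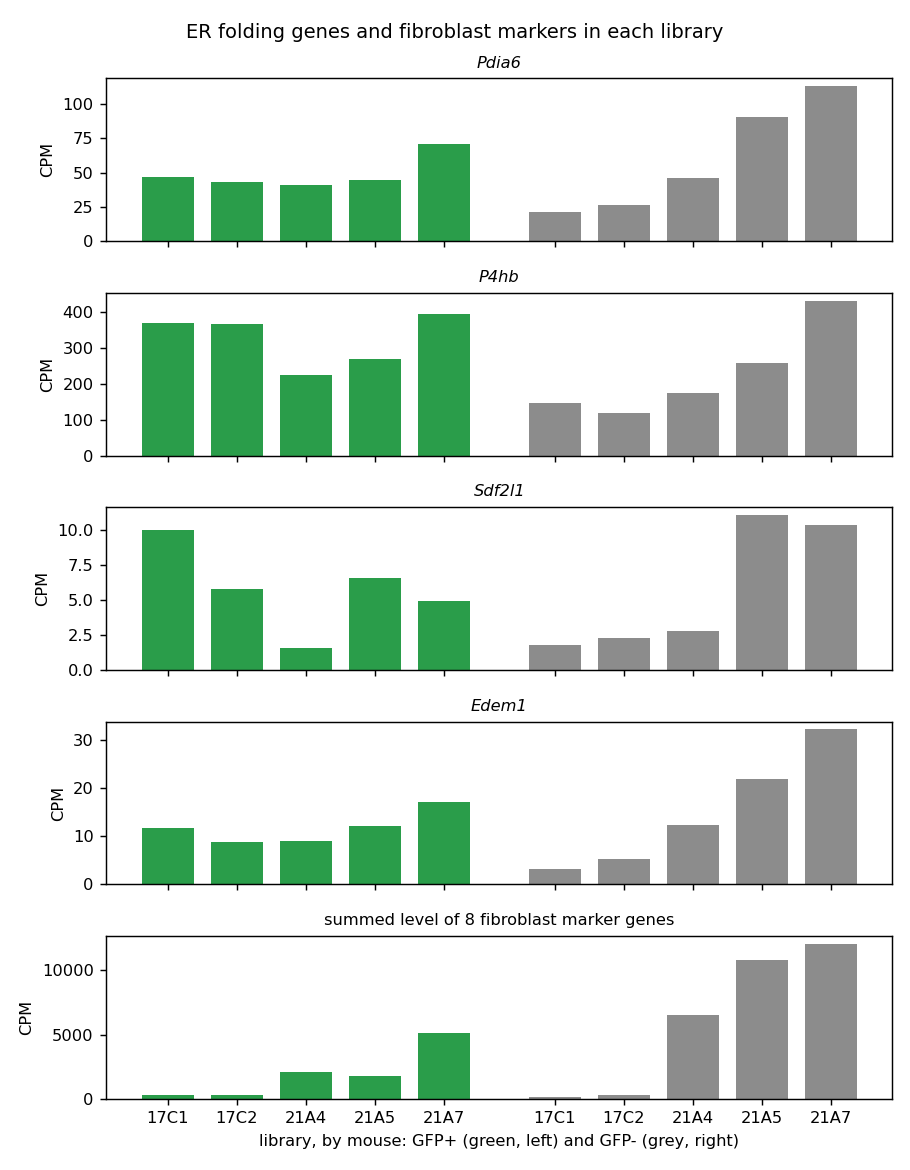
CPM (y axes, from 0) of Pdia6, P4hb, Sdf2l1 and Edem1 and the summed CPM of 8 fibroblast marker genes in each library (x axis, by mouse), with GFP+ libraries in green on the left and GFP- libraries in grey on the right. In GFP- libraries all 5 panels are higher in 21A5 and 21A7 than in 17C1 and 17C2, and the fibroblast sum reaches 12064 CPM.

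Set out by level, 13 of 21 ER members had all 3 GFP- libraries of 21A mice above both of 17C mice, as did 5 of 14 cytosolic and 0 of 3 mitochondrial members. That is 18 of 38 in all, against 33.6% of all tested genes. In GFP+ libraries the same order held for 6 of 21 ER, 5 of 14 cytosolic and 0 of 3 mitochondrial members, or 11 of 38 against 19.1% of all genes. The spread over the 5 mice was wider in GFP- than in GFP+ libraries for 24 of 38 members, against 49.5% of all genes. Herpud1, a stress-induced ER membrane protein of the degradation machinery, had the reverse order of series in GFP- libraries, though its spread was also wider there. It had 20.1, 31.2, 29.0, 23.9 and 13.1 CPM in GFP+ libraries against 85.7, 50.7, 28.6, 27.9 and 9.69 CPM in GFP- libraries. The 17C mice were thus the high ones in GFP- libraries. It was at -0.49 ± 0.36 over all 5 mice. Its difference between the series, 1.46 ± 0.45, did not pass (edgeR adjusted p = 0.0745).

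The other ER members did not pass over all 5 mice or between the series. The isomerases Pdia3 and Pdia4 were at -0.33 ± 0.32 and -0.40 ± 0.32, the J-domain partners of BiP Dnajb9 and Dnajb11 at -0.32 ± 0.32 and 0.02 ± 0.22, and the secreted stress proteins Creld2 and Manf at -0.45 ± 0.35 and 0.15 ± 0.31. Pdia4 and Manf came closest to a difference between the series, at -1.34 ± 0.37 and -1.33 ± 0.40 (edgeR adjusted p = 0.0574 and 0.0688).

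Many ER chaperone promoters carry the ER stress response element, the site that activated Atf6 and spliced Xbp1 bind together with NF-Y. Its letters, CCAAT and CCACG with any 9 bases between them, searched on both strands, were found in 7 of the 18 ER members with a RefSeq window, against 0.119% of 32851 mouse windows. These sites are shown to compare their spacers, read in the direction of the element, with the fixed letters in capitals.
Hspa5: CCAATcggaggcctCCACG
Hsp90b1, the site nearer the start: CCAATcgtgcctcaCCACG
Hsp90b1, the farther site: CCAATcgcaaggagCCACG
Calr: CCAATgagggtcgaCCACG
Canx: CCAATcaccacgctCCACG
Pdia6: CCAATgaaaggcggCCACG
Dnajc3: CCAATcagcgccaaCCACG
Creld2: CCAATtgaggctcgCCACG
The related element, ATTGG and CCACG with any 1 base between them, was found in Herpud1 and Dnajb11 (0.0365% of windows), and TGACGTGG, bound by spliced Xbp1 and Atf6, in no member (0.676% of windows). No member window held more than 1 kind of motif.

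The windows of Hspa5, the classical target, and of Pdia6, which differed between the series, place the element 47 and 80 bases before the start, with capitals marking its whole length (GRCm38.p6, chr2:34771840-34772139 and chr12:17266339-17266638, both plus strand).
Hspa5: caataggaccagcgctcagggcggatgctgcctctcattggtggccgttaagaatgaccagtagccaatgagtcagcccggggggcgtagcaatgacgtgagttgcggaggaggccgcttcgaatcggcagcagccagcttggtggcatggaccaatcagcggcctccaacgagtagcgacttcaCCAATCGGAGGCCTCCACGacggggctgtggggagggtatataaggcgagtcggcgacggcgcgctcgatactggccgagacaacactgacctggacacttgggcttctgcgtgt
Pdia6: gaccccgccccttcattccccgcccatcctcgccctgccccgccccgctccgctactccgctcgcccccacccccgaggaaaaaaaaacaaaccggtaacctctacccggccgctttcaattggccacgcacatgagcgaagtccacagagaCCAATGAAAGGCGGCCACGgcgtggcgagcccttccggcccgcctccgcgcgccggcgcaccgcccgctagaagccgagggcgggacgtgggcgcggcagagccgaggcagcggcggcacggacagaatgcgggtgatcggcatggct
ER members with either element and those without had overlapping values. The 9 with one had a median log2 fold change of -0.23 (range -0.49 to 0.03) and the 9 without one had -0.32 (range -0.55 to 0.65). Their medians of the difference between the series were -0.56 with an element and -1.10 without.

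The lists with other genes of the pathway gave 1 call. They held 28, 14, 14, 34, 19, 14 and 11 tested genes, and the fit called 0.858% of all genes. Spcs3, a subunit of the signal peptidase that trims proteins entering the ER, had 187, 142, 47.4, 70.1 and 33.5 CPM in GFP+ libraries against 15.3, 26.2, 13.4, 23.7 and 15.7 CPM in GFP- libraries. All 5 GFP+ libraries lay above all GFP- libraries, where 2.45% of all genes separated in either direction. The log2 fold change was 2.09 ± 0.37 (edgeR adjusted p = 0.0473, and 0.108 without the mouse block). The other 33 ER translocation and folding genes did not pass, and the 34 had a median of -0.05 over all 5 mice. The series parted here too. The median was -0.37 in the 21A mice, with 1 called higher and 2 lower, where 6.72% of all genes were called. It was 0.63 in the 17C mice, with 8 called higher, where 13.6% of all genes were called in either direction. For the difference itself, 21A minus 17C, the median was -0.99. Of 34 genes 5 were called, all below 0, where 7.62% of all genes were called in either direction. The next by p was Sec62, of the translocation channel, at -0.49 ± 0.21, and then Dnajc1, at -0.65 ± 0.29.

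The cytosolic chaperonin and prefoldin genes, whose products fold actin and tubulin, had 13 of 14 log2 fold changes above 0 and a median of 0.39. At an unadjusted p under 0.05 there were 6, against 15.3% of all genes, and 0 passed the adjusted threshold in edgeR's paired fit. DESeq2 called 3 of 14 and limma voom 4 of 14, all higher, against 7.53% and 9.6% of all genes. Cct8 averaged 62.0 ± 18.8 CPM in GFP+ libraries and 32.1 ± 4.18 CPM in GFP- libraries (SD, n = 5 each) and was at 0.90 ± 0.23 (edgeR adjusted p = 0.126), and Cct3 was at 0.87 ± 0.23 and Tcp1 at 0.69 ± 0.21. The median of this list relative to all genes was above 0 in each mouse, from 0.22 to 0.64.

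Of 28 co-chaperones 0 passed in edgeR's paired fit over 5 mice, with a median of 0.00. The rest of this paragraph rests on that fit unless another is named. Within the series 3 of 28 were called lower in the 17C mice and 2 higher in the 21A mice. In either direction 13.6% and 6.72% of all genes were called there. Between the series 3 of 28 differed, where 7.62% of all genes did. DESeq2 called 1 co-chaperone higher and 1 lower and limma voom 1 higher, where they called 7.53% and 9.6% of all genes. Hsbp1, which binds Hsf1, was at 0.71 ± 0.20, and the Hsp90 partners Fkbp4 and Fkbp5 at -1.07 ± 0.37 and -0.74 ± 0.29. Fkbp4 averaged 49.7 ± 7.11 CPM in GFP+ libraries and 123 ± 73.7 CPM in GFP- libraries. Mitochondrial import and protease genes gave 0 calls of 14, led by the proteases Htra2 at 1.09 ± 0.41 and Lonp1 at 0.64 ± 0.26. Of these 14, 1 was called lower in the 17C mice, 2 higher in the 21A mice and 1 between the series. The shares of all genes for those fits are given above. Of 19 tested genes of ER degradation 0 passed, with Derl2 at 0.79 ± 0.25. DESeq2 called 1 of the 19, higher, where it called 7.53% of all genes. Stress signalling gave 0 calls of 14 and the Perk effectors 0 of 11. DESeq2 and limma voom each called 1 stress signalling gene, higher, where they called 7.53% and 9.6% of all genes. The 17C mice called 1 stress signalling gene higher and 1 lower. The 21A mice called 1 stress signalling gene and 1 Perk effector lower. Between the series 1 gene of each of these 2 lists differed, where 7.62% of all genes did. Creb3, a membrane-bound transcription factor of the secretory pathway, averaged 23.5 ± 6.18 CPM in GFP+ libraries and 10.2 ± 4.56 CPM in GFP- libraries, at 1.29 ± 0.32 (edgeR adjusted p = 0.118). Atf4, the factor that Perk signalling raises by translation, averaged 17.8 ± 2.65 CPM in GFP+ libraries and 30.1 ± 12.5 CPM in GFP- libraries, at -0.65 ± 0.25 (edgeR adjusted p = 0.261).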

How the data were processed

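Per the labels' protocols, RNA of sorted heart cells was amplified with SMARTer chemistry and tagged with Nextera XT. The kit leaves strand unmarked, and PCR copies cannot be told from molecules. The authors deposited whole-number read counts per gene for all 10 libraries, not normalized. The submitters' processing notes list STAR 2.7.9a, fastp 0.23.1, featureCounts and Subread 2.0.1, and the build GRCm39. Not given in the sources used here are the annotation release, the strand setting and how multi-mapping reads were counted. The members and lists were chosen with earlier results of these data known.

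The main test was the two-sided quasi-likelihood test of edgeR 4.0.16 (R 4.3.3) on the 12115 genes that filterByExpr kept, with TMM scaling, Benjamini-Hochberg adjustment at 0.05 and the mouse as a block, because same-numbered libraries come from the same animal. Deviations of same-mouse libraries from group means correlated across genes with r of 0.292, 0.397, 0.161, 0.0741 and 0.637 in 17C1, 17C2, 21A4, 21A5 and 21A7. Correlations between libraries of different mice were not computed, so these values cannot check the pairing. Standard errors are the log2 fold change over the square root of F. Per-mouse differences use log2 CPM with a prior count of 2. Alternatives were the fit without the block, DESeq2 1.42.0, limma voom 3.58.1, other scalings and filters, each series alone, a marker covariate and each mouse left out. The test of the difference between series was added after seeing the data. Named genes were the 3 with the smallest p per compartment, preset ones (Hspa8, Hsp90aa1, Hspa1a, Hspa1b, Hspd1, Hspa9, Hspa5, Hsp90b1, Calr and Xbp1), those called in a series, and up to 3 per other list; Herpud1's library values and the pathway genes' library values were chosen after seeing the data. Of 38 members, 30 matched a RefSeq promoter. The edgeR, DESeq2 and limma voom fits were tested on simulated data. A limit on false calls was set there for edgeR and limma voom and not for DESeq2.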

Additional observations from a re-analysis of the deposited data

Results flagged for a closer look

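Among the 76 groups of 5 libraries that the members give, 4 held a library far from its group, where chance alone gives about 1 in 20. Hspa1b was high at 32.9 CPM in the GFP+ library of 21A5. Unc45b was low at 11.6 CPM in the GFP- library of 21A7, the library with the lowest cardiomyocyte marker sum (3859 CPM). Pdia3, at 168 CPM, and Pdia6, at 70.6 CPM, were high in the GFP+ library of 21A7, whose fibroblast markers summed to 5123 CPM, the most of any GFP+ library. That library also had the largest mitochondrially encoded share (91.2%) and the lowest TMM factor (0.241). The part of these markers and of the scaling in the 4 values was not tested.

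The effect of the group differed between the 21A and 17C mice, by the test of the difference itself, for 4 of 38 members, where the same test called 7.62% of all genes. The log2 fold change differed by -1.55 for Pdia6, -1.38 for P4hb, -2.81 for Sdf2l1 and -2.07 for Edem1.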

How the results depend on the processing

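The 16 genes named by rule gave 271 alternative values, of which 4 were past the threshold and 25 changed sign, none of them past it in either fit. Scaling by library size alone moved the median of all genes by -1.11 and scaling to sarcomere genes by -0.31, so directions are relative to all genes. The 0 members called became 1 with DESeq2, 1 with limma voom, 1 in the 21A mice alone, 5 in 17C mice and 1 with the marker covariate. The 104 genes called in all became 10 without the replicate block, 33 with library size alone, 0 with sarcomere scaling, 818 with no filter, 895 with DESeq2, 1163 with limma voom, 889 in 21A mice, 1510 in 17C mice and 1152 with the covariate, and 0 (without 17C2) to 173 (without 17C1) with a mouse left out. Without the block 0 members were called, as with it. Relative to all genes, the mitochondrial median of -0.12 became 0.039 with no filter and -0.26 to -0.063 with a mouse left out, and the ER median of -0.28 became 0.14 in the 17C mice and 0.052 with the covariate, and was -0.26 to -0.14 with a mouse left out (-0.14 without 21A5 and -0.14 without 17C2). The cytosolic median of 0.17 was -0.10 in the 17C mice, -0.085 with the covariate and 0.061 (without 21A5) to 0.28 (without 17C1) with a mouse left out, 0.072 without 21A4. The 4 members that differ between the series became 0 with library size alone, 29 with sarcomere scaling, 0 with the covariate and 0 to 3 with a mouse left out, and 6 with no filter or a stricter one. For the same difference, the 923 of 12115 genes called became 473 with library size alone, 4861 with sarcomere scaling and 2 with the covariate. They became 1733 of 26141 with no filter and 978 of 6884 with the stricter one. The 29 members thus came from a scaling that raised the count over all genes as well. The cause of these shifts was not tested. Counts from 9 to 33587 per member and library limit low genes such as Hspa1a, Sdf2l1 and Hspa2 most.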
